A study of Homo sapiens with 19 samples.

Results

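RB sites shared by the prostate cancer cell lines C4-2 and VCaP, and met by V5-tagged E2F1 in wild-type lists but in no K185R list, numbered 795 of the 9146 RB intervals of C4-2. They are called WT-only sites here. Each is an RB interval of C4-2 that overlapped an RB interval of VCaP by at least 1 base. It also overlapped a V5 interval in at least 1 of the 4 wild-type (WT) E2F1 lists and none in the 4 K185R lists. Of the 9146 sites, 5420 were shared with VCaP, which is 59.3%. Among these shared sites, 795 (14.7%) were WT-only, 51 had V5 in K185R lists only, 374 had V5 of both proteins and 4200 had no V5. The presence of RB and V5 intervals chose the sites, so the counts by V5 list below are descriptions without a test.

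The series maps chromatin binding by immunoprecipitation and sequencing (ChIP-seq) in cells kept in medium with 5% charcoal-stripped serum. V5 was mapped in C4-2 cells with a tetracycline-controlled E2F1, either the K185R mutant, in which a lysine is replaced by arginine, or WT. Each protein was studied with doxycycline (0.25 ug/ml for 3 days), with GSK2879552 (50 uM for 24 hours), with doxycycline followed by GSK2879552 (called both), and untreated, with 2 libraries each. RB lists come from cells without treatment, with 2 labelled libraries of C4-2 and 1 of VCaP, and the interval names of the C4-2 list carry only a single library name. The labels do not say whether the E2F1 lines are clones, nor whether tagged E2F1 was present without doxycycline. The names of the V5 lists say siRB where the treatment label says doxycycline, and siNTC where the label is without it. The groups follow the treatment labels. Each group is represented by 1 list of intervals on build hg19, so the spread between libraries cannot be measured and no difference between lists could be tested.

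RB is a pocket protein that binds E2F transcription factors at promoters of genes for DNA replication and the cell cycle and holds those genes down. E2F1 is the activator E2F most studied in this role, and phosphorylation of RB by cyclin-dependent kinases releases it. LSD1, the demethylase that GSK2879552 inhibits, removes methyl groups from histones and has also been described to act on E2F1 itself at the lysine changed in K185R. Gene annotation and genome sequence of the build of these lists were not used here, so sites are given by position and no sequence is shown.

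List length and depth limit what could be seen at these sites. The V5 lists held 2805 to 64025 intervals at an estimated depth of 0.716 to 1.79 reads per kilobase. For RB the depth was 8.21 in C4-2 and 2.98 in VCaP. Depth was estimated from the smallest local background value that 5 or more intervals of a list had in common. The weakest interval of every V5 list rested on 3 reads at its summit. A site without a V5 interval can thus still hold reads, and absence from the K185R lists means only that no interval was called. The K185R list was deeper than the WT list in 3 of the 4 treatments, at 1.02 against 0.716 reads per kilobase with GSK2879552, 0.837 against 0.812 with both and 1.79 against 1.21 untreated. With doxycycline it was shallower, at 1.12 against 1.40.

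The WT-only sites were spread unevenly over the 4 WT lists. V5 intervals lay at 119 of the 795 sites with doxycycline (14.97%, 95% Wilson interval 12.7 to 17.6), at 356 with GSK2879552 (44.8%, 41.4 to 48.3), at 432 with both (54.3%, 50.9 to 57.8) and at 279 untreated (35.1%, 31.9 to 38.5). These intervals cover counting error over sites only. Over all 9146 RB sites of C4-2, the same lists had a V5 interval at 11.8%, 12.5%, 13.9% and 14.1%. Over the 5420 shared RB sites they had one at 7.18%, 11.7%, 13.3% and 10.8%. The rule used these lists, and nothing is read from the comparison. In the K185R lists, a V5 interval lay at 6.07% (both) to 11.4% (untreated) of all C4-2 RB sites. Of the shared ones it lay, in the same order of lists, at 4.46%, 5.57%, 3.58% and 5.98% of the shared ones.

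The short GSK2879552 lists held far more of their intervals at WT-only sites than the long lists did. With GSK2879552, 353 of 2805 V5 intervals lay at these sites, which is 12.6% of the list (95% Wilson interval 11.4 to 13.9). With both treatments the share was 10.996% (426 of 3874). It was 0.184% with doxycycline (118 of 64025) and 1.81% untreated (274 of 15099). Other RB sites of C4-2 held 472, 512, 640 and 666 intervals of these lists in the same order. Shared sites with V5 of both proteins, counted apart, held 261, 271, 249 and 293. The larger share in the short lists was thus not particular to WT-only sites. The list with the most V5 intervals met the fewest of the WT-only sites. Its depth was also the highest of the WT lists, 1.40 reads per kilobase, against 0.716 with GSK2879552, 0.812 with both and 1.21 untreated. The part of depth in these counts was not tested. When every V5 list was reduced to its 2805 strongest intervals, a choice made after seeing the data, 718 sites were WT-only, of which the doxycycline list met 19, the GSK2879552 list 415, the list with both 444 and the untreated list 134.

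**Figure D1:**
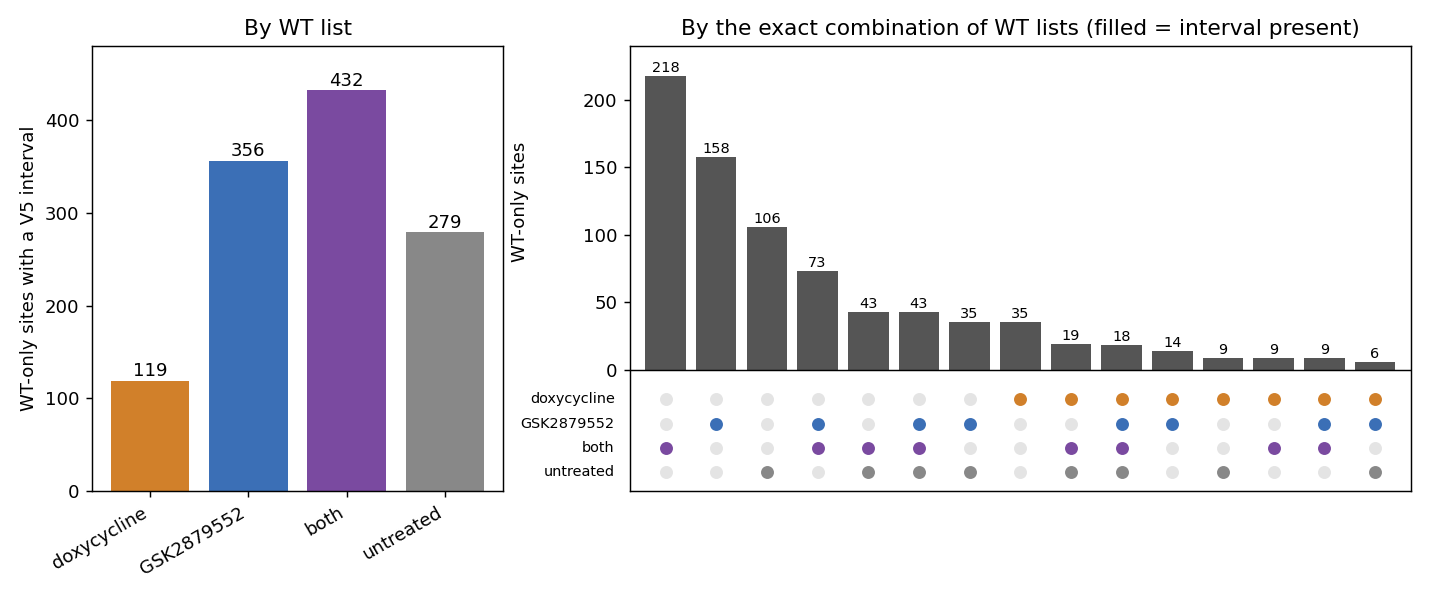
WT-only sites with a V5 interval in each WT list (left, bars are counts of sites) and by the exact combination of lists (right, filled dots mark the lists with an interval). The list with both treatments holds 432 sites and the doxycycline list 119, and the largest combinations are single lists, with 218, 158 and 106 sites.

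Most WT-only sites had a V5 interval in a single list. The number was 517 in 1 list (65.03%), 183 in 2 lists, 77 in 3 lists and 18 in all 4. As the plot of list combinations shows, the list with both treatments alone accounted for 218 sites, that with GSK2879552 alone for 158 and the untreated list alone for 106. Only 35 sites were in the doxycycline list alone. Grouped by inhibitor, 449 sites (56.5%) had V5 only in GSK2879552 lists, 150 (18.9%) only in lists without it, and 196 (24.7%) in both kinds. Over all 1169 shared RB sites with WT V5 the split was 41.7%, 17.5% and 40.7%, and over all 2171 such RB sites of C4-2 it was 29.1%, 23.2% and 47.7%. At the 301 sites of C4-2 alone with V5 in WT lists only, it was 41.9%, 37.9% and 20.3%. At the 374 shared sites with V5 of both proteins it was 10.4%, 14.7% and 74.9%. Among these sets, the WT-only shared sites had the largest share in GSK2879552 lists only. The sets overlap in part, since the 1169 sites include the 795 WT-only ones. The rule used the lists that are split here, so this is a description, and no test was made.

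Pairs of WT lists overlapped in part at these sites. Between the doxycycline and the untreated list, 52 sites were shared, which is 43.7% of the doxycycline sites and 18.6% of the untreated ones. Between the GSK2879552 and the untreated list, 102 sites were shared (28.7% and 36.6%). Between the list with both treatments and the doxycycline list, 55 were shared (12.7% and 46.2%), while 377 sites were in the first alone and 64 in the second alone. Between the list with both and that with GSK2879552, 143 were shared (33.1% and 40.2%). In none of these pairs did the shared sites reach 50% of either list's sites.

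The 18 sites with V5 in all 4 WT lists did not stand out by RB strength alone. Their RB fold enrichment in C4-2 (the authors' value per interval, summit reads over local background) ranged from 4.46 to 21.1 with a median of 7.17. Their V5 summits rested on medians of 7 reads with doxycycline, 8.5 with GSK2879552, 10 with both and 7.5 untreated. The range over these sites and lists was 4 to 19 reads, so even the sites found in every WT list were low in reads.

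The strongest of them lay at chr1:155214462-155214927, which is also the strongest RB site of all 795. Its RB fold was 21.1 on 99 reads in C4-2 and 24.1 on 97 reads in VCaP, and the RB summits of the cell lines lay 2 bases apart. Its V5 folds were 5.66 with doxycycline (9 reads), 6.77 with GSK2879552 (8 reads), 6.99 with both (10 reads) and 7.61 untreated (12 reads). V5 thus rested on 12 reads or fewer in every WT list at the site with the highest RB fold. The K185R lists have no interval there by the rule.

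Other sites with V5 in all 4 lists had weaker RB. At chr9:14322465-14322887 the RB fold was 12.1 on 35 reads in C4-2 and 5.30 on 21 reads in VCaP. Its V5 summits held 9 reads with doxycycline, 6 with GSK2879552, 8 with both and 6 untreated. At chr9:72873708-72874019 the RB folds were 10.5 in C4-2 and 8.64 in VCaP, and V5 summits held 5, 7, 10 and 6 reads in the same order of lists. These sites differed in which list gave the most V5 reads.

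At chr2:174828620-174829014 V5 summits held 8 reads with doxycycline, 11 with GSK2879552, 14 with both and 8 untreated, on RB folds of 8.58 in C4-2 and 5.48 in VCaP. At chr9:126773725-126774027 they held 6, 7, 17 and 8 reads, with RB folds of 7.72 and 10.2. At chr12:46777063-46777431 they held 6, 8, 12 and 7 reads, with RB folds of 7.50 and 9.58. At each of these, the list with both treatments had the most reads, although it was shallower than the doxycycline and untreated lists. That list also led at chr17:18218267-18218507, with 7, 10, 17 and 6 reads in the same sequence, on RB folds of 6.71 and 7.26. Another 3 of the 10 sites with the strongest RB in this set lay on chromosome 8, with RB folds of 9.06, 7.90 and 7.19 in C4-2. Of these, the first had the largest V5 summit of any WT-only site in the GSK2879552 list, 19 reads.

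Among the named WT-only sites, the highest V5 fold occurred in the list with both treatments. At chr1:51434104-51434448 the V5 fold was 14.6 on 24 reads with both, 12.8 on 18 reads with GSK2879552 and 4.99 on 6 reads untreated, and the doxycycline list had no interval. RB there had a fold of 11.99 on 37 reads in C4-2 and 7.36 on 20 reads in VCaP. At chr19:14016797-14017014 the V5 fold was 12.5 on 22 reads with both, 8.64 on 13 reads with GSK2879552 and 8.79 on 15 reads untreated, again with none with doxycycline. RB was stronger at this site, with folds of 14.3 in C4-2 and 14.9 in VCaP. At chr19:39926667-39926801 V5 summits held 20 reads with both, 15 with GSK2879552 and 13 untreated, with RB folds of only 6.69 and 7.71. These 3 sites share a pattern: V5 in every WT list other than that with doxycycline alone.

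Some sites had their strongest V5 elsewhere. The untreated list had its highest V5 −log10 q among WT-only sites at chr22:42915842-42916002, with a fold of 9.65 on 13 reads. This site was in all 4 lists, with 8 reads with doxycycline, 15 with GSK2879552 and 10 with both, on a weak RB fold of 5.12 in C4-2. Other leading sites of the untreated list were chr11:62414036-62414178 with 14 reads and chr15:31195995-31196152 with 12 reads. The GSK2879552 list had 14 reads at chr7:122526612-122526892, where the list with both treatments had 6 and the other WT lists no interval.

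In the doxycycline list, the V5 interval of highest −log10 q at WT-only sites had a fold of 10.2 on 15 reads and spans a pair of RB sites. They lie at chr19:30302480-30302690 and chr19:30302789-30302945, with RB folds of 5.35 and 5.26 in C4-2, and count as separate sites although V5 gave them 1 shared interval. The doxycycline list also held chr3:48129102-48129301 with 16 reads, chr9:21994542-21994860 with 9 reads and chr5:134734788-134735069 with 9 reads. At the chromosome 9 site, the list with both treatments had 16 reads and the GSK2879552 list 7, and the untreated list had no interval. The leading doxycycline sites were thus also found in other WT lists.

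RB was somewhat stronger at WT-only sites than at shared RB sites without V5. In C4-2 the median RB fold was 6.67 at the 795 WT-only sites (95% interval of the median over sites 6.45 to 6.80), 5.86 at the 51 sites with K185R V5 only (5.17 to 6.91), 6.18 at the 374 sites with V5 of both proteins (5.79 to 6.48) and 5.80 at the 4200 without V5 (5.74 to 5.86). In VCaP the medians were 6.996 (6.82 to 7.28), 5.87 (5.16 to 6.67), 6.62 (6.26 to 7.11) and 6.44 (6.36 to 6.52). Sites are not replicates, so no test was made. A wider RB interval can meet the overlap that the rule asks for more readily. The median width in C4-2 was 228 bases at WT-only sites and 174 bases without V5. The part of width in these values was not tested. The fold at the sites with V5 of both proteins is lowered by local background. Of those 374 sites, 147 (39.3%) had a background at least 10 times the floor of the C4-2 list. The floor is the smallest background value that 5 or more intervals had in common. That held for 4 of the 795 WT-only sites, 10 of the 51 with K185R V5 only (19.6%) and 26 of the 4200 without V5. At low background the medians in C4-2 were 6.69 (6.47 to 6.82) at WT-only sites, 6.69 (5.73 to 7.32) with K185R V5 only, 7.39 (7.02 to 7.84) with V5 of both and 5.81 (5.75 to 5.86) without V5. The order of WT-only sites and sites with V5 of both proteins therefore turned with the background filter. The distance in C4-2 between WT-only sites and sites with K185R V5 only was absent under it.

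**Figure D2:**
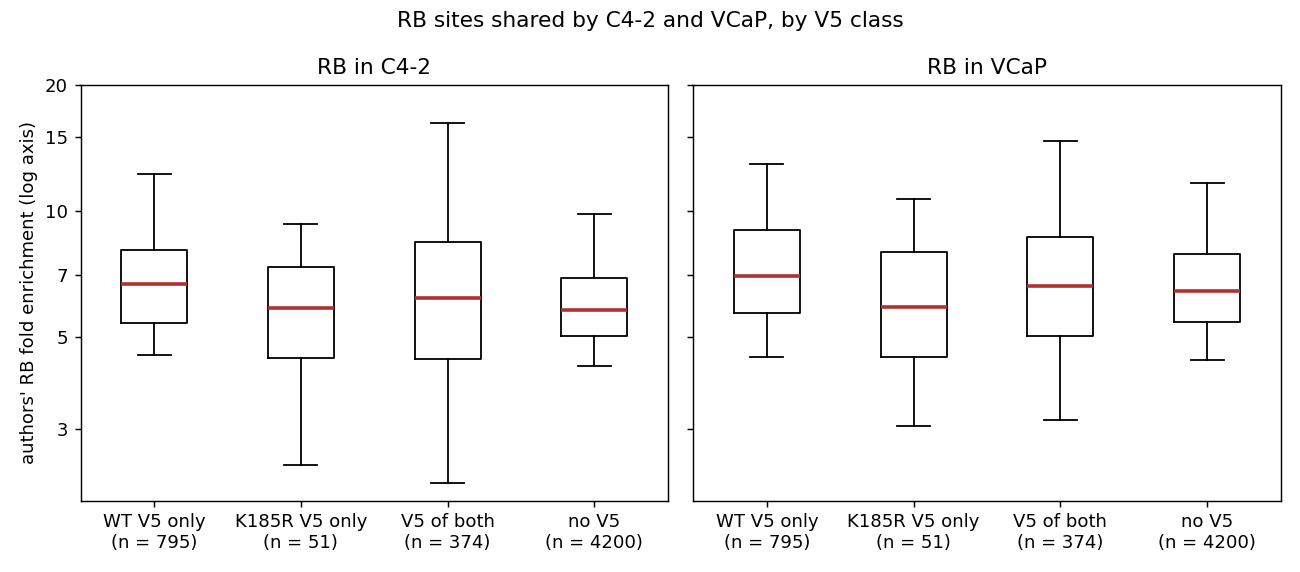
The authors' RB fold enrichment (log axis) in C4-2 (left) and VCaP (right) at shared RB sites by V5 class. Boxes span the quartiles, whiskers the 5th to 95th percentile and red lines the median, which is 6.67 in C4-2 and 6.996 in VCaP at WT-only sites, against 5.80 and 6.44 at sites without V5.

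Summit reads were likewise higher at WT-only sites than without V5. The median RB summit held 17 reads at WT-only sites, 46 at sites with V5 of both proteins and 14 at sites without V5 in C4-2. In VCaP these medians were 19, 27.5 and 16 reads. At low background, the medians in the same order of classes were 17, 21 and 14 reads in C4-2 and 19, 20 and 16 reads in VCaP, so most of the distance to the sites with V5 of both proteins was absent there. Sites with K185R V5 only had medians of 20 reads in C4-2 and 20 in VCaP, and of 17 and 16 at low background. RB intervals of C4-2 had a median width of 228 bases at WT-only sites and 174 bases at sites without V5. With V5 of both proteins the width was 246 bases, and with K185R V5 only 196. The RB summits of C4-2 and VCaP lay a median of 61 bases apart at WT-only sites (95% interval of the median 54 to 68) and 70 bases at sites without V5 (66 to 72). This distance was 54 bases with V5 of both proteins (44 to 61) and 82 with K185R V5 only (41 to 111).

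RB was stronger at sites with V5 in 3 WT lists than at those with V5 in 1. The median RB fold in C4-2 was 6.45 at sites with V5 in 1 list (95% interval of the median 6.27 to 6.69), 6.79 in 2 lists (6.48 to 7.06), 7.60 in 3 lists (6.91 to 8.17) and 7.17 in 4 lists (5.20 to 8.58). The last interval covers the others' medians. The median RB width was 216 bases with V5 in 1 list and 270 bases in 3 lists, and its part was not tested. Between sites with V5 in GSK2879552 lists only and sites with V5 only in lists without the inhibitor, the median RB folds were 6.51 (6.29 to 6.75) and 6.49 (6.12 to 6.88). Sites with V5 in both kinds of list had 6.95 (6.69 to 7.32). RB in untreated cells was thus close between sites that differed in the inhibitor lists.

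The share of WT-only sites was larger among stronger RB sites in both cell lines. Wider RB intervals can overlap a V5 interval more readily, and the part of width in these shares was not tested. Ranked by −log10 q of RB in C4-2 and split into 5 equal groups of 1084 shared sites, 9.23% of the weakest group were WT-only (95% Wilson interval 7.64 to 11.1), then 10.4%, 12.8%, 18.3% and 22.6% of the strongest (20.2 to 25.2). Ranked by RB in VCaP, the shares were 10.5%, 11.99%, 14.6%, 16.4% and 19.8%. Sites with V5 of both proteins were 1.11% of the weakest group and 21.5% of the strongest in C4-2. Sites with K185R V5 only were 0.646%, 0.369%, 0.830%, 1.29% and 1.57% of the groups in C4-2, weakest first, on 4 to 17 sites per group. Ranked by RB in VCaP, they were 1.11% of the weakest and 1.11% of the strongest group. A larger share at stronger RB in C4-2 was thus not particular to WT-only sites.

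**Figure D3:**
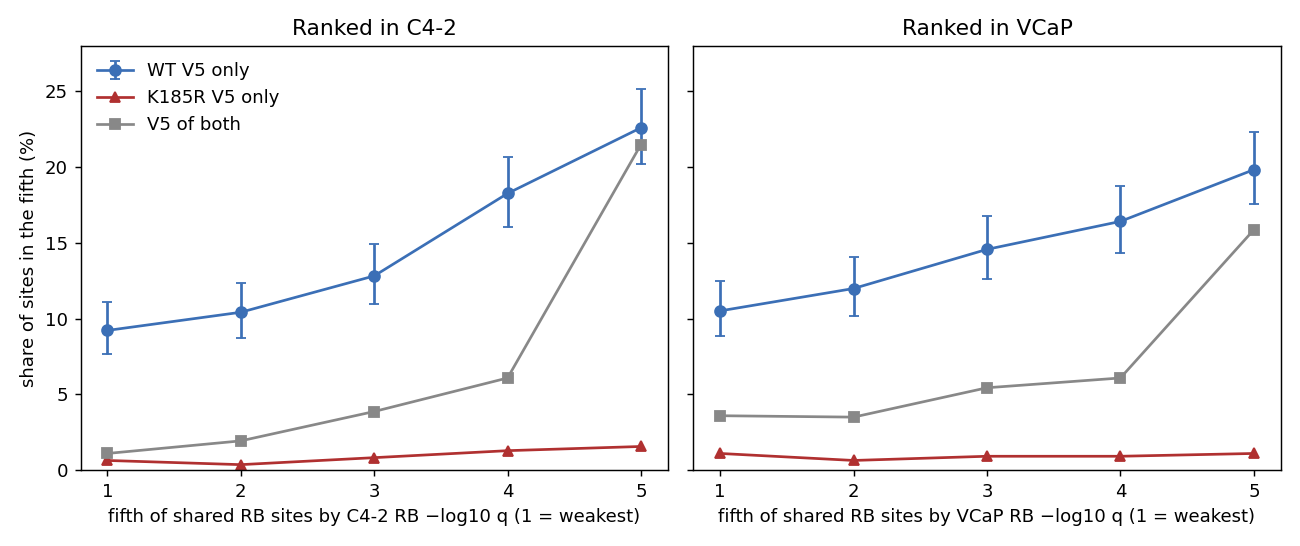
Share of shared RB sites in each V5 class (percent) by group of RB strength (5 equal groups) in C4-2 (left) and VCaP (right), weakest first. Bars on the WT-only points are 95% Wilson intervals, and the WT-only share runs between 9.23% and 22.6% in C4-2 and between 10.5% and 19.8% in VCaP.

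Among the 10 WT-only sites with the highest RB −log10 q in C4-2, V5 was low at most. At chr6:20534581-20534915 the RB fold was 19.9 on 60 reads in C4-2 and 22.2 on 262 reads in VCaP, while V5 was in the untreated list alone with 6 reads. At chr7:54841911-54842212 the RB folds were 20.3 and 15.7, with V5 in the GSK2879552 list alone on 5 reads. At chr12:49524501-49524812 the RB folds were 14.4 and 15.5, with V5 in the GSK2879552 list alone on 7 reads. Strong RB thus went with a single weak V5 interval at these sites.

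Other strong RB sites had more V5. At chr6:37137390-37137818, with RB folds of 15.8 and 13.6, V5 was in the list with both treatments alone, with 16 reads. At chr7:73668557-73668876, with RB folds of 17.5 and 15.8, V5 held 14 reads with GSK2879552 and 7 with both. At chr10:96305406-96305739, with RB folds of 17.4 and 8.54, it held 6 reads with doxycycline, 12 with both and 6 untreated. V5 reads were higher here than at the sites with a single weak interval, while their RB folds lie in a similar range.

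Of the rest, chr17:56084738-56085198 had V5 in the 3 lists other than doxycycline, with 8 reads with GSK2879552, 6 with both and 8 untreated. At chr15:56285745-56286108 V5 held 4 reads with doxycycline and 7 with both. At chr1:91966261-91966966, the widest RB interval of the 10, the V5 summits lay 316 bases (GSK2879552) and 268 bases (both) from the RB summit. At the other sites of the 10, V5 and RB summits were at most 85 bases apart.

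V5 summits lay close to RB summits at WT-only sites. The rule asked for overlap of the intervals, which by itself limits this distance. RB intervals of C4-2 had a median width of 228 bases at these sites. The distance that overlap alone would give was not computed, so the values are a description. The median distance between V5 and C4-2 RB summits was 55 bases with doxycycline, 49.5 with GSK2879552, 49.5 with both and 44 untreated. Within 100 bases were 81.5%, 78.4%, 75.5% and 78.1% of the sites in the same order. The V5 summit lay inside the RB interval at 82.2% to 90.8% of the sites. To the VCaP RB summit the median distances were longer, 93, 75, 80 and 75 bases. At low-background shared sites with V5 of both proteins, the median distance to the C4-2 RB summit was 37, 45, 45 and 26 bases, all shorter than at WT-only sites.

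**Figure D4:**
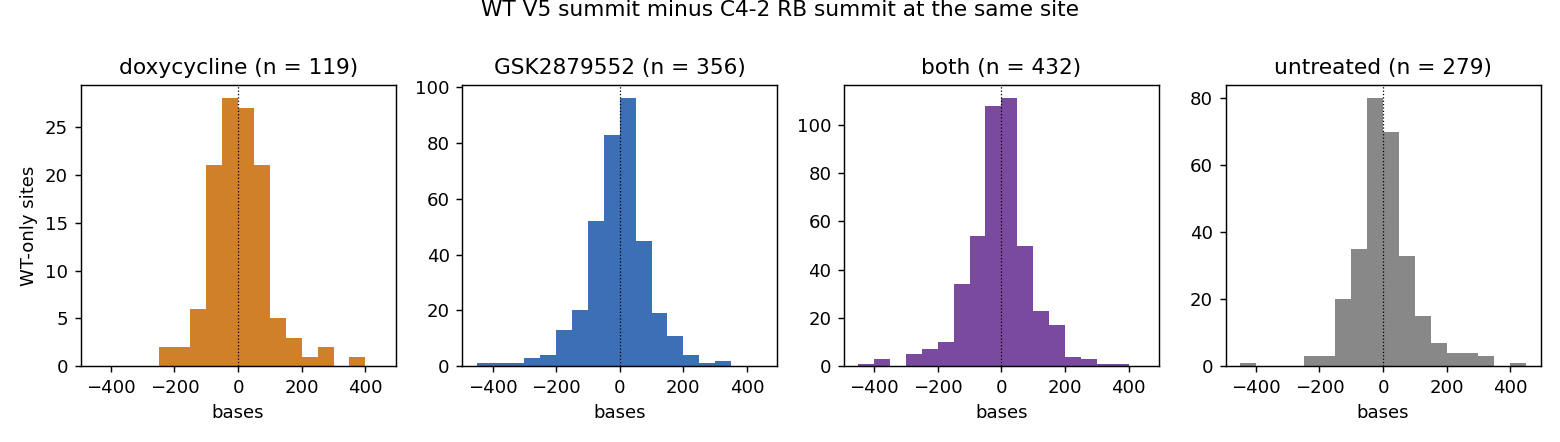
Position of the WT V5 summit relative to the C4-2 RB summit at WT-only sites, in bases on the x axis and numbers of sites per bin of 50 bases on the y axis, 1 panel per WT list. The distributions centre near 0, and 75.5% to 81.5% of the sites lie within 100 bases. The overlap that chose the sites limits these distances.

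V5 summits from different WT lists fell on nearly the same position at a site. Over the 522 pairs of lists at a shared site, the median distance between V5 summits was 37 bases, and 88.5% of pairs lay within 100 bases. The medians of the 6 list pairs ranged from 33 bases between both and untreated to 46 bases between doxycycline and both. Pairs from the same site share the RB interval that both V5 intervals had to overlap.

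V5 at WT-only sites was weak, though above the bulk of each list. The median V5 summit at these sites held 6 reads with doxycycline, 7 with GSK2879552, 7 with both and 6 untreated. V5 intervals away from C4-2 RB sites had a median of 5 reads in each list. In rank by −log10 q within their own list, V5 intervals at WT-only sites had median percentiles of 62.1, 59.6, 65.7 and 77.5. The corresponding percentiles away from RB sites were 49.4, 35.5, 38.1 and 49.2. V5 intervals at shared RB sites with V5 of both proteins ranked far higher, at 99.2, 88.4, 89.6 and 96.6. Many of these had a local background of 10 times the floor or more, 162 of 249, 124 of 261, 137 of 271 and 162 of 293. At the low-background sites of that class, the median V5 summit held 13, 11, 11.5 and 10 reads.

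The shape of the V5 intervals went the same way. Summits with 5 or fewer reads made up 43.2%, 24.6%, 18.3% and 32.8% of V5 intervals at WT-only sites, against 67.1%, 69.5%, 68.8% and 76.7% away from RB. Intervals of the smallest width of their list were 46.6%, 39.1%, 34.7% and 40.5% at WT-only sites, against 50.5%, 70.7%, 67.2% and 63.8% away from RB. The doxycycline list showed the smallest gap in width. High local background was rare here, with 4 V5 intervals of 10 times the floor or more over the 4 lists.

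WT V5 intervals at WT-only sites recurred in other WT lists in a larger share than intervals away from RB sites, in each of the 4 lists. Only V5 intervals that overlapped no K185R interval were compared. At WT-only sites, 70.3% of such intervals in the doxycycline list were also in another WT list (83 of 118, 95% Wilson interval 61.6 to 77.8). Away from all RB sites the share was 3.94% (1918 of 48639, 3.77 to 4.12). With GSK2879552 the shares were 56.6% (198 of 350) and 22.2% (220 of 990), with both treatments 49.9% (211 of 423) and 20.8% (344 of 1652), and untreated 62.0% (170 of 274) and 16.8% (1677 of 9987). The rule asked for 1 WT list and did not use the number of further ones, but recurrence is counted over the same lists that chose the sites. List length also limits it. For the 48639 doxycycline intervals away from RB, the other WT lists held only 2805, 3874 and 15099 intervals in which to recur. No test was made, since intervals are not replicates.

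The difference in recurrence was also present between intervals of like reads. Among intervals with 5 or 6 summit reads, 64.2% recurred at WT-only sites and 3.97% away from RB with doxycycline. These shares were 45.5% and 21.3% with GSK2879552, 36.9% and 21.2% with both, and 53.7% and 16.9% untreated. With both and untreated, the median in this group was 6 reads at WT-only sites and 5 away from RB. With 7 to 9 reads the shares were 86.1% and 4.01% with doxycycline and 58.5% and 36.7% with GSK2879552. They were 52.8% and 32.0% with both, and 75.8% and 18.3% untreated. The part of reads was not tested. WT V5 intervals at RB sites of C4-2 alone, again without a K185R interval, recurred in 46.6%, 44.5%, 56.7% and 46.0% of cases in the same order of lists. The WT-only shared sites were above these in 3 of the 4 lists and below in the list with both treatments, so the recurrence was not higher than at other RB sites in every list.

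**Figure D5:**
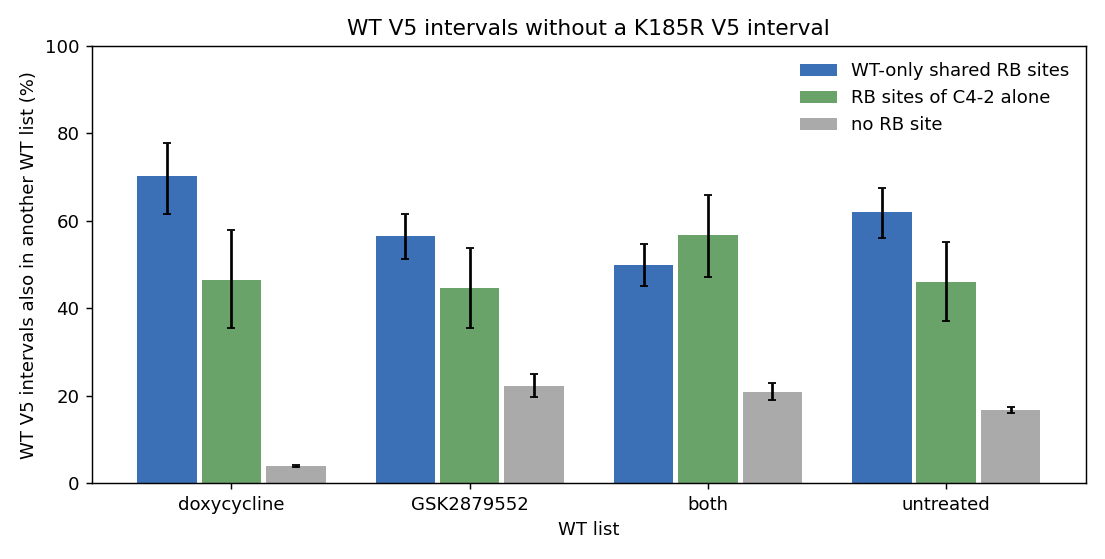
Share of WT V5 intervals that overlap an interval of another WT list (percent, bars with 95% Wilson intervals), at WT-only shared RB sites, at RB sites of C4-2 alone and away from RB, for V5 intervals that overlap no K185R interval. At WT-only sites 49.9% to 70.3% recur, away from RB 3.94% to 22.2%.

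The mirror class, shared RB sites with V5 in K185R lists only, was small. There were 795 WT-only and 51 K185R-only sites, a ratio of 15.6. The shares of shared RB sites are 14.7% and 0.941%. Over all 9146 RB sites of C4-2 1096 had V5 in WT lists only and 152, or 1.66%, in K185R lists only. At RB sites of C4-2 alone the counts were 301 and 101, a ratio of 2.98. These counts come from the calls that the rule used and are a description only. The ratio at shared sites lay between 9.16 and 25.6 over 15 alternative settings, the lowest when the WT list with both treatments was left out. Leaving out the K185R GSK2879552 list gave 844 WT-only and 33 K185R-only sites.

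Recurrence within the lists of the same protein was described in both mirror classes without a test. Of the 795 WT-only sites, 278 (35.0%, 95% Wilson interval 31.7 to 38.3) had V5 in 2 or more WT lists. Of the 51 K185R-only sites, 10 (19.6%, 11.02 to 32.5) had V5 in 2 or more K185R lists, and none in all 4. These intervals overlap. At RB sites of C4-2 alone these shares were 27.6% of 301 and 13.9% of 101.

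The WT-only sites were dispersed over the genome. Chromosome 1 held the most, 81, followed by chromosome 7 with 60 and chromosome 3 with 58, and there were none on Y, where 22 RB sites were shared. As a share of shared RB sites, chromosome 6 had 18.1% (95% Wilson interval 13.6 to 23.6) and chromosome 12 had 17.8% (13.9 to 22.6). Chromosome 19, which is rich in genes, had 9.86% (6.96 to 13.8) and chromosome 4 had 7.10% (4.198 to 11.8). The overall share of 14.7% lies above the last 2 ranges. Neighbouring sites were a median of 1889 kilobases apart, and 14 of 772 neighbouring pairs lay within 1 kilobase, so a few sites share their surroundings.

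Few sites met the rule by only a few bases. Stricter settings still changed the count of WT-only sites, to 279 at −log10 q of at least 5 in every list and 317 with 50% overlap. The smallest best overlap with a WT V5 interval was 3 bases, and 17 sites overlapped by fewer than 20 bases, against a median of 163. The overlap with VCaP RB was as small as 1 base, and 13 sites had fewer than 20. A K185R interval lay within 100 bases of 5 sites, the nearest at 2 bases, and within 500 bases of 16, while the median gap was 10839 bases. On the other side, 2 of the 374 sites with V5 of both proteins were excluded by a K185R overlap of fewer than 20 bases, the smallest being 14.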

How the data were processed

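ChIP-seq of RB and V5-tagged E2F1 gave 19 libraries in 10 groups, and the authors deposited 1 list of intervals per group. The submitters' processing notes name MACS2 2.1.0, SAMtools 1.2, BWA 0.7.9a and FastQC 0.11.9, and build hg19. How each was run, whether duplicates were removed and which control was used is not given in the sources used here. Interval names, per the file contents, say that the V5 libraries were merged, while the C4-2 RB list carries the name of a single library. The deposited lists give the fold enrichment (a linear ratio), −log10 p-value and −log10 q-value of each interval and its summit. The deposited score repeats the q-value and was not used.

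Summit reads and local background were solved from the deposited fold and −log10 p (1 read added to both terms of the fold, Poisson p). The recomputed −log10 p differed by at most 0.000163, and 100% of the reads of 1000 simulated intervals per list were recovered. The floor is the smallest background value that 5 or more intervals have in common, and depth is the floor over the smallest interval width. A count of 1 base of overlap made a site shared, and the VCaP or V5 interval of highest −log10 q was used where several overlapped. Shares have 95% Wilson intervals, and medians have 95% binomial intervals from the ordered values. Both cover counting error over sites only, since intervals are not replicates and PCR reads without molecular identifiers are not independent molecules.

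Sites named are the 10 with the highest RB −log10 q, the 5 with the highest V5 −log10 q in each WT list and, of the 18 in all 4 WT lists, the 10 with the highest RB −log10 q. The sites, lists and settings were chosen with earlier results of these data known. Analyses ran in Python 3.11.15 with pandas 2.3.3, numpy 2.4.6 and scipy 1.17.1.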

Additional observations from a re-analysis of the deposited data

Results flagged for a closer look

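Without the inhibitor, the WT list with doxycycline met fewer WT-only sites than the list lacking it, and under the inhibitor it met more. Without GSK2879552 the WT doxycycline list met 119 sites and the untreated list 279, a difference of -160. With GSK2879552 the list with both treatments met 432 sites and the list with the inhibitor alone 356, a difference of 76. The opposite directions brought this result here. The same directions held over all 5420 shared RB sites, with 7.18% with doxycycline against 10.8% untreated and 13.3% with both against 11.7% with GSK2879552. Over all 9146 RB sites of C4-2 these shares were 11.8% against 14.1% and 13.9% against 12.5%, so the pattern was not particular to the WT-only sites. With each V5 list cut to its top 1000 intervals, the list with both met 210 sites and that with GSK2879552 214, and the direction under the inhibitor turned. Each side is 1 list, the rule that chose the sites used these lists, and the difference was not tested.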

How the results depend on the processing

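WT-only sites numbered 279 at −log10 q of at least 5 in every list, 317 with 50% of both intervals overlapping, 453 with summits within 100 bases and 365 when each V5 list was cut to its top 1000. The counts in the doxycycline, GSK2879552, both and untreated lists were then 19, 138, 178 and 74 at the stricter threshold, 47, 141, 175 and 89 with 50% overlap, 65, 200, 230 and 151 by summits, and 14, 214, 210 and 61 at the top 1000. The doxycycline list met the fewest sites under each of these settings, while the order of the GSK2879552 list and that with both treatments turned at the top 1000. With 2805 intervals per list, added after seeing the data, 718 sites were WT-only, and the doxycycline, GSK2879552, both and untreated lists met 19, 415, 444 and 134. The median RB fold of WT-only sites in C4-2 was 7.50, 7.37, 6.91 and 6.86 under the first 4 settings in that order. Sites with K185R V5 only numbered 14, 24, 29 and 27 under them, and 29 with 2805 intervals per list. Leaving out 1 of the 8 V5 lists at a time gave 577 to 851 WT-only sites and 33 to 69 K185R-only sites. All these settings reduce the intervals or tighten the overlap, apart from the lists left out, and the cause of each shift was not tested. Leaving out high-background intervals gave 784 WT-only sites. Distances to start sites and motif shares were planned and not run, since no genome or annotation of the build was used here. No paired analysis was possible because each list pools the libraries of its group. V5 summits of 6 or 7 reads limit what a missing interval can show.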
